A study of Caenorhabditis elegans with 4 samples.

Results

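The genes described here encode the proteins of the cytosolic ribosome in Caenorhabditis elegans. They were chosen by name alone, as every probe whose platform symbol starts with rpl-, rps- or rla- or equals ubl-1. The rule found 64 probes for 63 genes, of 15168 named genes on the array: 38 genes of the large subunit (rpl-) and 25 of the small subunit (rps-). No symbol starting with rla- and no ubl-1 was found. All 63 genes had values on 4 arrays and were tested. A further probe, annotated to rpl-18 and other genes together, was left out. The reference gene table holds 78 symbols of this kind, and the 15 not analysed here are rpl-7A, rpl-10a, rpl-17, rpl-18A, rpl-26, rpl-27, rpl-27A, rpl-34, rpl-41.1, rpl-41.2, rps-4, rps-6, rps-20, rps-27A and rps-28.

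Adult males of a him-5 strain, in which the X chromosome often fails to segregate in meiosis so that many males are born, were compared with wild-type worms of mixed stages on 4 DNA microarrays of 2 colours. Each array carried messenger RNA of another preparation of males (preparations 1 to 4) beside the reference RNA, which 1 label calls mixed-stage and the others mixed. Values are log2 ratios of males over reference, so that 1 is a 2-fold excess in males. No dye is named, and this direction is the likely one given how the title and sample descriptions are worded and how the channels are ordered. Sex, stage and the him-5 mutation differ together between males and reference and cannot be told apart. Nothing says that the preparations came from separate cultures, so that p-values measure only the spread between these preparations. The ratio compares relative amounts of RNA in whole worms, in which fewer cells of a type and less RNA per cell cannot be told apart.

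A ribosome joins a small subunit, which reads the messenger RNA, to a large subunit, which forms the peptide bonds. Each protein is needed in about equal amounts, and the genes are among the most highly expressed in growing cells, under control of growth signals such as the TOR kinase. In C. elegans the germ line and the growing larva make ribosomes in large numbers, and several ribosomal protein genes have another copy elsewhere in the genome.

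Per array, 19424 to 19761 of 20000 probes had a value. Sperm and male neuron genes checked the male label: 29 of 30 major sperm protein genes and 6 of 7 genes of male sensory neurons were higher in males. The other male neuron gene, 1 of the 7, was lower (limma adjusted p under 0.05 for all of these calls). Preparation 2 correlated least with the other arrays over all features (Pearson's r 0.71 to 0.79, against 0.80 to 0.90 among preparations 1, 3 and 4). Limma called 45.7% of 19214 tested features at an adjusted p under 0.05 (Benjamini-Hochberg), 22.1% as higher and 23.6% as lower in males.

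The ribosomal protein genes lay close to the reference on preparations 1 and 3, somewhat above it on preparation 4 and well above it on preparation 2. Their median log2 ratio was 0.13 on preparation 1, 1.10 on preparation 2, 0.04 on preparation 3 and 0.33 on preparation 4. The median of all tested features stayed between -0.01 and 0.07 on the same arrays. Preparation 2 was the highest of the 4 arrays for 61 of 63 members, against 31.1% of all features with 4 values. All 63 members were above 0 on preparation 2, 56 on preparation 4, 41 on preparation 1 and 34 on preparation 3. The exceptions to the order were rpl-42, highest on preparation 1, and rpl-32, highest on preparation 3.

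**Figure D1:**
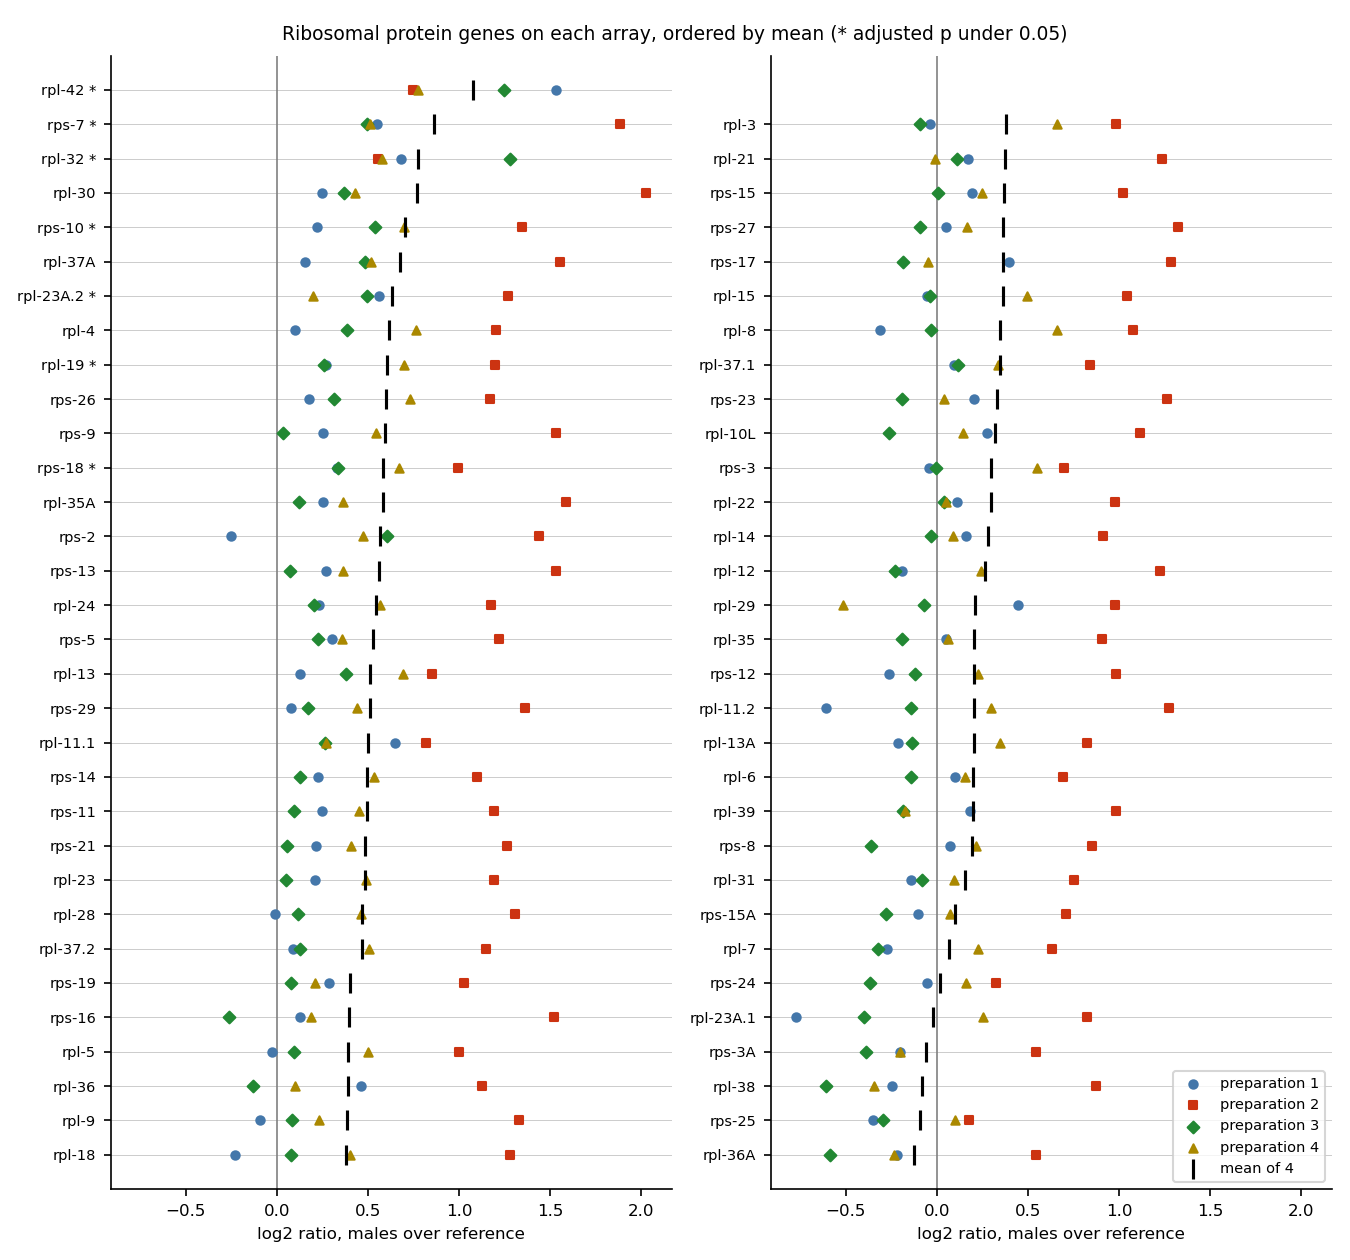
Log2 ratio of males over reference (horizontal axis) for the 63 ribosomal protein genes (rows, ordered by mean) on each array, with 1 symbol per preparation and a bar at the mean of 4; a star marks an adjusted p under 0.05. Preparation 2 lies to the right of the other arrays in every row except those of rpl-42 and rpl-32.

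Some other gene lists also stood highest on preparation 2, and others stood lowest there. The median of 1074 chemoreceptor genes, which single sensory neurons express and which are faint in whole-worm RNA, was 0.77 on preparation 2 and 0.13, 0.20 and 0.27 on preparations 1, 3 and 4. The ribosomal protein median minus that of the chemoreceptors was therefore -0.01, 0.33, -0.15 and 0.07 on preparations 1 to 4. With each array centred on the chemoreceptor median, a scaling chosen after the data were seen, the median over the ribosomal protein genes was 0.04. As deposited, 91.9% of the chemoreceptor genes were above 0 on preparation 2, against 51.5% of all tested features. The yolk list, markers of the hermaphrodite intestine, was highest on the same array: over 3 measured genes its median was 0.98 on preparation 2, while preparations 1, 3 and 4 gave 0.15, 0.08 and 0.35. The yolk genes were split, with 1 called higher and 1 called lower in males. The 5 other intestine markers did not stand highest there, with medians of 0.56, 0.29, 0.13 and 0.69 on preparations 1 to 4. The 4 measured embryo markers had a median of 0.33 on preparation 2 and -0.23 to 0.06 on the others. The 9 oocyte markers had a median of -0.89 on preparation 2 and -1.75 to -0.60 on the others, and the 5 germ line markers -0.68 and -0.46 to -0.31. Sperm genes were highest on preparation 2, at a median of 5.08 (4.01 to 4.91 on the others). Lowest there were male neuron markers at 0.65 (0.86 to 1.21 on the others) and body muscle markers at 0.59 (0.71 to 2.27). So were neuron markers at -0.70 (-0.50 to -0.24) and larval moult markers at -1.91 (-1.55 to 0.01). The part of these groups in the values of the ribosomal proteins was not tested.

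**Figure D2:**
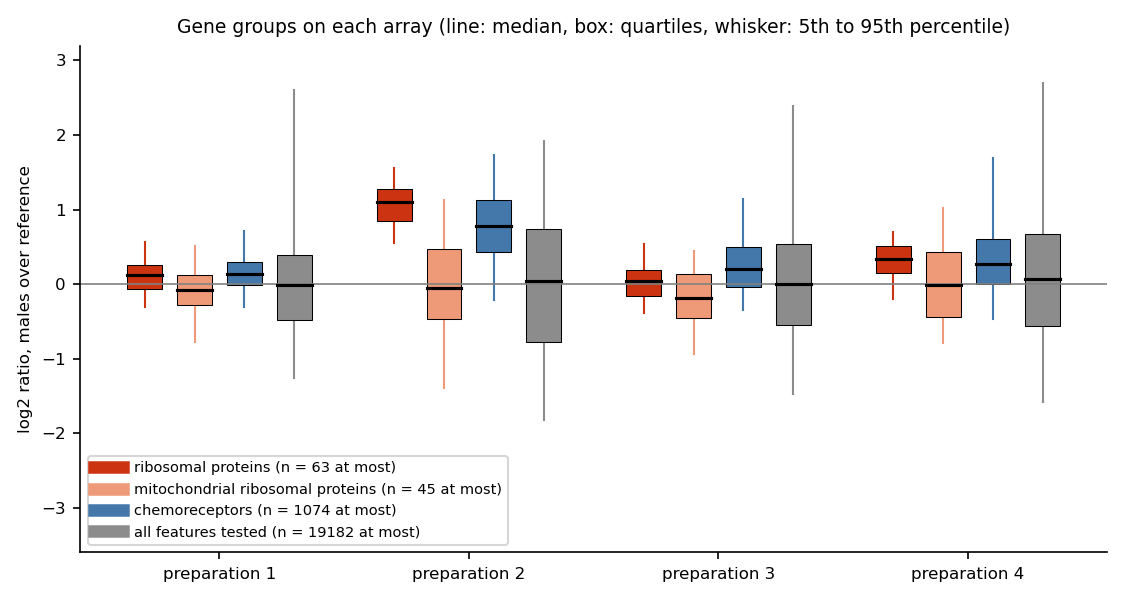
Log2 ratios (vertical axis) of ribosomal protein, mitochondrial ribosomal protein and chemoreceptor genes and of all tested features on each array, with the median as a line, quartiles as a box and the 5th to 95th percentiles as whiskers. On preparation 2 the medians of ribosomal proteins (1.10) and chemoreceptors (0.77) lie above that of all features (0.05).

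Within an array the members stayed near one another. The interquartile range of the 63 log2 ratios was 0.32, 0.42, 0.35 and 0.36 on preparations 1 to 4, against 0.87, 1.52, 1.09 and 1.23 for all tested features. On preparation 1 the chemoreceptors lay about as close together, with quartiles of -0.02 and 0.30, against -0.07 and 0.25 for the members. On preparation 2 they spread more widely (0.43 and 1.13, against 0.85 and 1.27), as on preparations 3 and 4. The median SD of a member over the 4 arrays was 0.49. It was 0.19 once the family median of each array had been subtracted. Medians of the subunits lay side by side: the large subunit genes had medians of 0.10, 1.02, 0.05 and 0.32 on preparations 1 to 4, and the small subunit genes 0.20, 1.19, 0.03 and 0.36. The large minus the small subunit median was thus -0.10, -0.17, 0.01 and -0.04, a gap smaller than the interquartile range on each array. Across the 63 genes, Pearson's r was highest between preparations 1 and 3 (0.65) and between 3 and 4 (0.65). It was 0.19 to 0.29 for the other pairs. By rank (Spearman), the order of the members repeated best between preparations 3 and 4 (0.71). Next by rank came 1 and 3 (0.53) and 2 and 3 (0.43), and the remaining pairs had 0.19 to 0.29. These correlations share 1 reference and the same probes, and genes are not independent replicates.

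Of the 63 members, 7 rose in males and none fell by limma at an adjusted p under 0.05, beside 22.1% of all features called higher and 23.6% called lower. The mean over arrays was above 0 for 58 members and below 0 for 5. A log2 ratio above 0 on all 4 arrays was found for 28 members and one below 0 on all 4 for none, against 32.6% and 30.5% of all features with 4 values. An unadjusted p under 0.05 was found for 16 members, and 5 had an adjusted p between 0.05 and 0.06. Of all features, 45.7% passed even after adjustment. The family median of the means was 0.38, against 0.05 for all features. The 1074 chemoreceptor genes had the same median of means, 0.38, so this level was not particular to the family. Of the chemoreceptors, 21.7% were called higher and 1.21% lower. Without preparation 2 the family median was 0.15, only 3 members were called (rpl-42, rpl-32 and rps-7) and 17 means lay below 0. Leaving out preparation 1 gave 5 calls (rpl-42, rpl-32, rps-10, rpl-4 and rps-2), of which 3 were among the 7. Without preparation 4 the count was 4 (rpl-42, rpl-32, rps-7 and rpl-23A.2). Without preparation 3 rpl-42 alone was called. With arrays centred on the chemoreceptor median, no member was called.

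The highest member was rpl-42, with log2 ratios of 1.53, 0.75, 1.25 and 0.78 on preparations 1 to 4. It was the only one at least 2-fold higher on average, at 1.08 ± 0.38 (SD, n = 4) and 2.11-fold (limma adjusted p = 0.00431). All 4 arrays stood well above 0, and preparation 2 was the lowest of them, the reverse of the family. Its place in the family rests on the symbol. The protein of this number in yeast corresponds to the mammalian protein RPL36A, and rpl-36A is present here as a separate gene, so that no role is given for rpl-42. The pair stood at the 2 ends of the list: rpl-36A, the lowest member, had -0.22, 0.54, -0.58 and -0.23, a mean of -0.12 ± 0.48 (SD, n = 4, limma adjusted p = 0.661). In assembly WBcel235 both genes lie on chromosome II with 1 protein-coding gene, nbs-1, between them.

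The small subunit gene rps-7 had 0.55, 1.89, 0.50 and 0.51 on preparations 1 to 4, a mean of 0.86 ± 0.68 (SD, n = 4, limma adjusted p = 0.0337). Preparations 1, 3 and 4 lay close together, and preparation 2 stood apart. It no longer passed when preparation 1 was left out (adjusted p = 0.0523), nor when preparation 3 was (adjusted p = 0.0532). The large subunit gene rpl-32 had 0.68, 0.56, 1.28 and 0.58, a mean of 0.78 ± 0.34 (SD, n = 4, limma adjusted p = 0.0141). Here preparation 3 was high and preparation 2 the lowest. Without preparation 3 its mean was 0.61 and the call was lost (adjusted p = 0.0938). For rpl-30, also of the large subunit, the values were 0.25, 2.03, 0.37 and 0.43, with preparation 2 far above the rest. Its mean of 0.77 ± 0.84 (SD, n = 4) did not pass (limma adjusted p = 0.0781), and the SD was the largest of the family. Under the alternatives run, rpl-30 was called higher in 2 of 17.

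The gene of the small subunit protein rps-10, which sits near the entry of the messenger RNA channel, had 0.22, 1.35, 0.54 and 0.70. Its mean was 0.70 ± 0.47 (SD, n = 4, limma adjusted p = 0.0332). The call was lost without preparation 2 (0.49, adjusted p = 0.0613), 3 (adjusted p = 0.0824) or 4 (adjusted p = 0.0694). rpl-23A.2, for a protein at the mouth of the tunnel through which new peptides leave, had 0.56, 1.27, 0.50 and 0.20, a mean of 0.63 ± 0.45 (SD, n = 4, limma adjusted p = 0.0443). It lost its call without preparation 1 (adjusted p = 0.0968), 2 (adjusted p = 0.0786) or 3 (adjusted p = 0.109). rpl-19 and rps-18, named after their values were seen, had means of 0.61 ± 0.45 (adjusted p = 0.0494) and 0.58 ± 0.32 (adjusted p = 0.037, SD, n = 4, limma). On preparations 1 to 4, rps-18 had 0.33, 1.00, 0.33 and 0.67, and rpl-19 had 0.27, 1.20, 0.26 and 0.70. In both genes preparation 2 was the highest and preparation 4 the next. Both calls were lost without any 1 of the 4 preparations (adjusted p = 0.0616 to 0.0902 for rps-18 and 0.0638 to 0.111 for rpl-19).

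Among genes that narrowly failed the threshold of 0.05 was rpl-37A with 0.15, 1.55, 0.48 and 0.52, a mean of 0.68 (limma adjusted p = 0.0589). rpl-4, whose protein lines the peptide tunnel, had 0.10, 1.21, 0.39 and 0.76, a mean of 0.61 (limma adjusted p = 0.053). In both genes preparation 2 alone was above 1. Under the alternatives run, rpl-4 was called higher in 5 of 17 and rpl-37A in 3 of 17.

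At the lower end, 5 members had a mean below 0, and none of them passed. rps-25 had -0.35, 0.18, -0.29 and 0.10, the smallest SD of the family (0.27) and the lowest value of any member on preparation 2. rpl-38, whose mouse counterpart is known for its role in translating Hox messages, had -0.24, 0.87, -0.61 and -0.35. For rps-3A the values were -0.20, 0.54, -0.39 and -0.20. Each of rpl-38, rps-3A and rpl-36A was below 0 on preparations 1, 3 and 4 and above 0 on preparation 2, and each mean was above 0 without preparation 3 (0.095, 0.047 and 0.031). Next came rps-24 (-0.05, 0.32, -0.37 and 0.16), rpl-7 (-0.27, 0.63, -0.32 and 0.23) and rps-15A (-0.10, 0.71, -0.28 and 0.07). Their means of 0.02, 0.07 and 0.10 were all smaller than their SDs of 0.30, 0.45 and 0.43. rps-16 had the third largest SD, 0.78, with 0.13, 1.52, -0.26 and 0.19.

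The only member with more than 1 probe, rpl-31, gave -0.18, 0.77, 0.01 and 0.08 with one probe and -0.10, 0.73, -0.17 and 0.12 with the other. The probes differed by less than the spread between arrays.

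Subtracting the family median of each array asks which members moved unlike the others. After that subtraction and a limma fit over all features, no member passed in either direction and none had an unadjusted p under 0.05, while 8.45% of all features stood higher and 23.6% lower. The subtraction widened the spread of the other features (median SD 0.63, against 0.39 as deposited), and the moderated test draws on that spread. In values, 26 members kept to one side of the family median on every array, against 54.2% of all features with 4 values: 13 lay above it, and 13 below, where 43% of all features lay. The members set this median and so lie near it and on both sides of it by construction. The shares of all features are therefore not a like comparison. The members above were led by rps-7, rpl-30, rps-10 and rpl-37A, with mean distances of 0.46, 0.37, 0.30 and 0.28. The others were rpl-19, rps-26, rpl-35A, rps-13, rpl-24, rps-5, rps-11, rps-21 and rpl-23. Distances were steady for rps-11, 0.03 as an SD, and for rps-21 and rpl-23, 0.06 each.

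The lowest member relative to the family was rpl-36A, with distances of -0.34, -0.56, -0.63 and -0.57 on preparations 1 to 4 (mean -0.52 ± 0.12, SD, n = 4). rps-3A lay at -0.33, -0.56, -0.43 and -0.54, and rps-15A at -0.23, -0.39, -0.32 and -0.26. All of these distances were negative and of like size on every array. rpl-38 (mean distance -0.48), rps-25 (-0.49), rpl-23A.1 (-0.42), rps-24 (-0.39) and rpl-7 (-0.34) varied more, and rpl-31, rps-8, rpl-6, rps-12 and rpl-35 lay nearer, at -0.24 to -0.19. Without preparation 2, rpl-38 passed as lower than the family (-0.57, limma adjusted p = 0.038) and rpl-42 passed as higher. On single arrays rpl-42 stood at 1.41, -0.36, 1.21 and 0.44 from the family median, and rpl-32 at 0.56, -0.54, 1.24 and 0.24. Both thus lay above the family on preparations 1, 3 and 4 and below it on preparation 2.

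**Figure D3:**
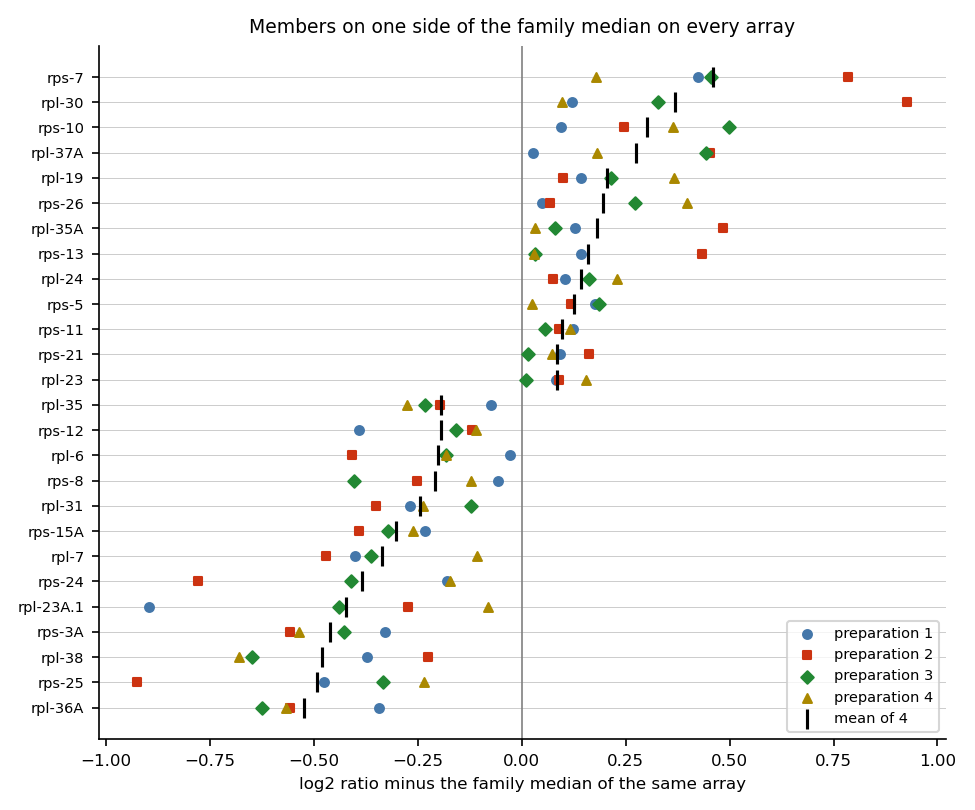
Log2 ratio minus the family median of the same array (horizontal axis) for the 26 members that lay on one side of that median on every array, with 1 symbol per preparation and a bar at the mean. rpl-36A, rps-3A and rps-15A keep within a narrow band below 0, and rps-7 and rpl-30 reach furthest above it on preparation 2.

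Genes that share a family number gave 3 pairs, of which 2 join a copy on an autosome with one on the X chromosome in assembly WBcel235. The X chromosome is known to be largely silent in worm germ cells, and some X-linked genes have autosomal copies that act there. The protein of rpl-11.1 and rpl-11.2 binds the smallest ribosomal RNA of the large subunit. The autosomal rpl-11.1 had 0.65, 0.82, 0.27 and 0.27 on preparations 1 to 4, and the X-linked rpl-11.2 had -0.61, 1.28, -0.14 and 0.30. rpl-11.1 thus varied little (SD 0.28, among the 3 smallest) and rpl-11.2 much (SD 0.80, among the 3 largest). Neither passed (limma adjusted p = 0.0545 for rpl-11.1 and adjusted p = 0.591 for rpl-11.2). Under the alternatives run, rpl-11.1 was called higher in 3 of 17 and rpl-11.2 in 0.

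The autosomal minus the X-linked copy was 1.26, -0.46, 0.41 and -0.03 for rpl-11 on preparations 1 to 4 (mean 0.30 ± 0.73, SD, n = 4). For the other such pair, the X-linked rpl-23A.1 had -0.77, 0.83, -0.40 and 0.25, beside the values of the autosomal rpl-23A.2 given above. rpl-23A.2 minus rpl-23A.1 was 1.33, 0.44, 0.89 and -0.05 (mean 0.65 ± 0.59, SD, n = 4). In both pairs the gap was widest on preparation 1 and near 0 on preparation 4, and the sign was not the same on all arrays. A set of 4 differences cannot pass an exact sign-flip permutation test, whose smallest p is above 0.05. rpl-11.2 and rpl-23A.1 were the only X-linked members and the 2 lowest members on preparation 1. In the pair of autosomal copies, rpl-37.1 had 0.09, 0.84, 0.11 and 0.33 and rpl-37.2 had 0.09, 1.15, 0.13 and 0.51. Their difference, rpl-37.1 minus rpl-37.2, was 0.00, -0.31, -0.01 and -0.17, and neither passed (limma adjusted p = 0.173 and 0.119). Copies of a gene are alike in sequence, and a probe may read both.

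**Figure D4:**
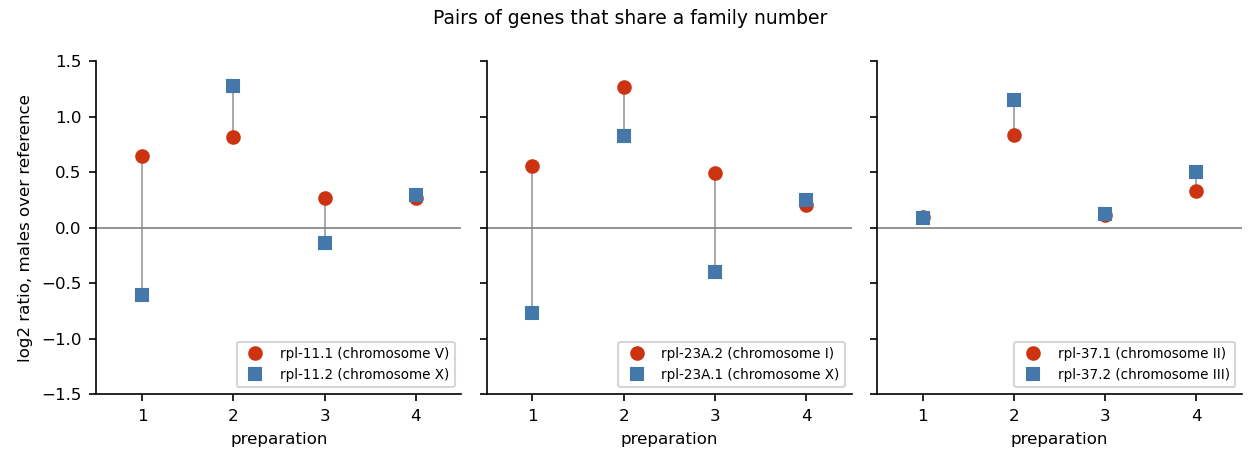
Log2 ratios of males over reference (vertical axis) of 3 pairs of genes with the same family number on preparations 1 to 4, joined by a line on each array. On preparation 1 the X-linked copies rpl-11.2 (-0.61) and rpl-23A.1 (-0.77) lie below their autosomal copies, and on preparation 4 the difference is -0.03 for rpl-11 and -0.05 for rpl-23A.

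The members are spread over the genome, with 15 on chromosome I, 10 on II, 17 on III, 12 on IV, 7 on V and 2 on X. Median mean ratios by chromosome ran from 0.34 on IV to 0.54 on I among the autosomes, and the 2 genes on X had a median of 0.09. Among members, 2 pairs are direct neighbours among protein-coding genes: rps-10 with rpl-24, and rps-14 with rpl-36. Mean ratios were 0.70 and 0.54 in the first pair and 0.50 and 0.39 in the second. rpl-36 had 0.46 on preparation 1 and -0.13 on preparation 3, whereas rps-14 had 0.23 and 0.13, so that neighbours did not take the same values.

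Some genes for ribosomal and ribosome-bound proteins carry other symbols. The stalk, a flexible arm that recruits elongation factors, is encoded by genes now named rplp-, which were added after the data were seen. rplp-0 had 0.39, 1.88, 0.52 and 0.52, a mean of 0.83 ± 0.71 (SD, n = 4, limma adjusted p = 0.0416). Leaving out preparation 3 or 4 ended that call, at an adjusted p of 0.0683 and 0.0529. rplp-2.1 and rplp-2.2 had means of 0.50 and 0.43 and did not pass. rack-1, for a scaffold protein bound to the small subunit, had 0.23, 1.39, 0.22 and 0.77 (mean 0.65, limma adjusted p = 0.0563). ubq-2, for ubiquitin fused to a large subunit protein, had 0.35, 1.14, -0.03 and 0.25 (mean 0.43, limma adjusted p = 0.151). These 5 genes were highest on preparation 2, and only rplp-0 passed. The other members of the list of ribosome-bound and nascent chain factors had negative means and were named after their values were seen. icd-1, for a subunit of the nascent chain complex, had -0.44, -0.25, -0.58 and -0.30 (mean -0.39, limma adjusted p = 0.0847), and tct-1 had -0.28, 0.21, -0.56 and -0.26 (mean -0.22). Of the 4 genes of that list none passed, while 2 were called lower with array weights and 2 with chemoreceptor centring. rack-1 was called higher with scale normalization (adjusted p = 0.0487), quantile normalization (adjusted p = 0.0393) or the title period as a random block (adjusted p = 0.0278).

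Other genes of the translation machinery had medians near or below 0, a difference from the ribosomal proteins that was not tested. The 5 elongation factor genes had medians of -0.50, 0.45, -0.41 and 0.10 on preparations 1 to 4, highest on preparation 2, where all 5 were above 0. None of them passed by limma. eef-2, for the factor that moves the ribosome along, had -0.70, 0.02, -0.59 and 0.10. It was called lower with array weights (-0.51, adjusted p = 0.0112) and with chemoreceptor centring (-0.63, adjusted p = 0.0463). Its mean was -0.29, while eef-1A.2, for the factor that delivers transfer RNA, had a mean of 0.37. An unadjusted p under 0.05 was not reached by either of these 2 genes (0.196 and 0.0915). Of 29 initiation genes, 5 rose and 4 fell (17.2% and 13.8%), with a median of -0.04 on the log2 scale. inf-1, for the helicase that unwinds message leaders, had 0.75, 1.09, 0.67 and 1.06, a mean of 0.89 (limma adjusted p = 0.00509). ife-1, for a cap-binding protein of the germ line, had a mean of 0.86 (limma adjusted p = 0.0135), and pab-2, for a poly(A)-binding protein, of -0.85 (limma adjusted p = 0.0456). The call of ife-1 was lost without preparation 1 or 3, and that of pab-2 without preparation 1, 2 or 3, where its mean without preparation 2 was -0.49. With 1 preparation left out, 1 to 4 initiation genes were higher and 0 to 4 lower, the fewest without preparation 3 (1 and 0). The median of 45 mitochondrial ribosomal protein genes was -0.11, with 2 higher and 5 lower (beside 22.1% and 23.6% of all features). Their array medians of -0.08, -0.05, -0.18 and -0.01 showed no step on preparation 2. Of these, mrps-11 had a mean of -1.47 ± 0.22 (limma adjusted p = 0.000589), mrpl-1 of -1.19 ± 0.48 and mrpl-11 of -0.86 ± 0.52 (SD, n = 4). Without preparation 3 the counts of the mitochondrial list were 3 higher and 2 lower, and mrpl-11 lost its call. These counts depended on the processing: they were 3 higher and 17 lower with array weights, 0 and 12 with chemoreceptor centring, 5 and 6 with quantile normalization, and 6 and 9 with the title period as a random block.

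Genes that build ribosomes were lower in males where they passed, with 1 exception. Of 23 ribosome assembly genes 10 fell and 1 rose (43.5% and 4.35%, beside 23.6% and 22.1% of all features), and the median log2 ratio was -0.34. nog-1, for a nucleolar GTPase of large subunit assembly, had -2.30, -2.66, -2.67 and -2.16, a mean of -2.45 ± 0.26 (SD, n = 4, limma adjusted p = 8.66e-05). lpd-7, the worm pescadillo gene, had -1.81, -2.18, -1.99 and -1.71, and byn-1, the bystin gene, -1.84, -2.27, -1.93 and -1.60. All 3 genes were clearly below 0 on every array, preparation 2 included, where they were at or near their lowest. The higher gene, named after its values were seen, was nol-56, for a core protein of the particles that modify ribosomal RNA, at 0.78 ± 0.44 (SD, n = 4, limma adjusted p = 0.0196). Its call was lost without preparation 2, 3 or 4. fib-1, the fibrillarin gene, had -0.78, 0.44, 0.44 and 1.09 and did not pass (limma adjusted p = 0.426), nor did ncl-1, a repressor of nucleolar size, at -0.12.

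Of 12 genes of TOR and S6 kinase signalling, 6 fell and none rose (50% and 0%, beside 23.6% and 22.1% of all features), with a median of -0.65. The count of lower genes was 4 to 5 with 1 preparation left out, and 4 without preparation 1 or 3. daf-15, for the TOR partner Raptor, had -0.94, -1.24, -1.16 and -0.97, a mean of -1.08 ± 0.14 (SD, n = 4, limma adjusted p = 0.00183). nprl-3 and nprl-2, for proteins that restrain TOR, had means of -1.06 ± 0.42 and -0.90 ± 0.35 (SD, n = 4). let-363, for the TOR kinase itself, had values on 3 arrays only, 0.72, -0.03 and 2.30, and did not pass (limma adjusted p = 0.102). With array weights let-363 was called higher (1.90, limma adjusted p = 0.00145), where preparation 3, its highest value, had the largest weight (4.73). With the title period as a covariate its estimate was 1.32, where preparation 3 was its only value of the later period. Both estimates thus lean on that 1 array. Of the 2 measured RNA polymerase I genes, rpoa-2 fell with a mean of -0.68 (limma adjusted p = 0.0246). rpoa-12 had -0.65, -0.0043, -0.69 and -0.80 on preparations 1 to 4 and did not pass (mean -0.54, limma adjusted p = 0.0559). Both were called lower with scale or quantile normalization, each centring, array weights, the random block, or without preparation 2. Neither was called without preparation 1 or 3, or at an adjusted p under 0.01. The medians of the initiation, mitochondrial, assembly, TOR and RNA polymerase I lists were below 0 under every alternative run.

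**Figure D5:**
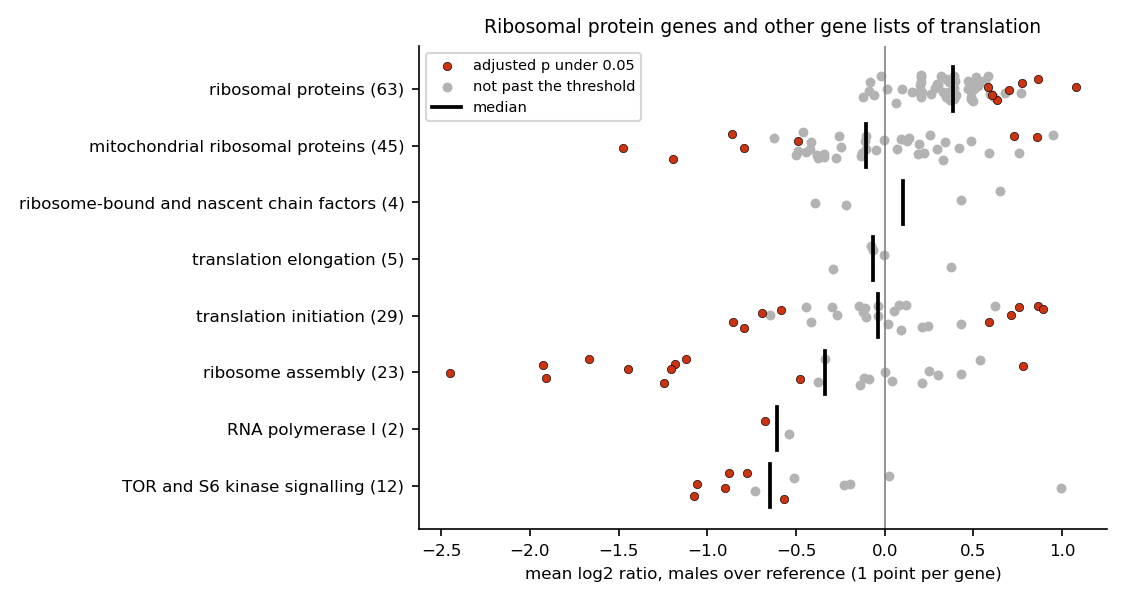
Mean log2 ratio of males over reference (horizontal axis) for each gene of 8 lists, with called genes in red and a bar at the list median. The 63 ribosomal protein genes lie around 0.38, while the 23 ribosome assembly genes reach down to -2.45.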

How the data were processed

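The deposited values are log2 ratios per probe, with array medians near 0; for scaling, background correction and spot filters by the authors, the sources used here give no method. Base 2 was taken from the values themselves: as powers of 2, 100% of ratios under 3 fell on steps of 0.001 (within 0.01 of a step). Spot intensities were not used here. Probes were named from the platform annotation and updated to symbols of assembly WBcel235 (15569 by gene identifier, 7 by accession). Probes of a gene were averaged per array, giving 19513 features, of which 19214 with values on at least 3 arrays were tested. An intercept was fitted with limma 3.58.1 in R 4.3.3 (lmFit, eBayes, two-sided, Benjamini-Hochberg over all features, adjusted p under 0.05). The reference is not a sample of a group, so the test is the mean ratio against 0. The fit was tested on simulated data in which 200 of 19214 features were changed. It recovered 28% of the changes of 1 on the log2 scale and 72% of the changes of 2. Far more features were called in the real data, so these rates may differ there. A gene that did not pass may still differ between males and reference. Figures used matplotlib 3.10.9.

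The members, gene lists and tests were chosen with earlier results of these data known. Named genes are the 8 highest and 8 lowest members, those with a paralogue number or with 1 of the 3 largest or smallest SDs, up to 3 called genes per other list, and 10 fixed genes, of which rsks-1 and eef-1A.1 had no probe named for them alone here. Alternatives were other scalings, other minimum numbers of arrays, array weights, robust eBayes, single probes, a stricter threshold, the period given in the sample titles (preparations 1 and 2 against 3 and 4), each preparation left out and other memberships.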

Additional observations from a re-analysis of the deposited data

Results flagged for a closer look

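Of 70 genes and list medians examined, 5 had 1 array far from the other 3 (Dixon's test of the gap over the range). The chance rate of about 1 in 20 holds for independent items that were not chosen by their values. Many of these genes were named for their means or SDs in the same data, and all share the arrays. The count can therefore not be set against that rate. Preparation 2 stood apart for 3 of the 5 flagged: rpl-30 at 2.03, rps-7 at 1.89 and rplp-0 at 1.88. The median of the translation initiation list stood apart on preparation 4 at 0.18, and that of the 2 RNA polymerase I genes on preparation 3 at -0.68. The family median itself was not among them, since preparation 4 lay between preparation 2 and the others.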

How the results depend on the processing

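The count of 7 members called higher was 13 with quantile normalization, 13 with array weights (6 of the 7 among them), 16 with the title period as a random block (all 7 among them; the estimated correlation was -0.22), 1 at an adjusted p under 0.01, and 0 with arrays centred on the ribosomal protein or the chemoreceptor median. With a negative correlation, the random block gives a mean a smaller standard error than independent arrays would. Its calls, here and for other genes, are therefore more lenient. Leaving out 1 preparation gave 1 to 5 members called higher. With array weights, which gave preparation 3 a weight of 4.73 and preparation 2 one of 0.31, rpl-38 and rpl-36A were called lower (2, against 0), and 2 members stood above and 3 below the family median by the test (rpl-32 and rpl-42; rpl-38, rpl-36A and rpl-23A.1). Leaving out 1 preparation gave 0 to 1 in each direction there. Calls over all features numbered 4242 higher and 4535 lower, with 1624 higher and 4536 lower when centred on ribosomal proteins, 1997 higher when centred on chemoreceptors, 2393 and 2683 at an adjusted p under 0.01, and 2782 to 3755 higher and 3010 to 4280 lower with 1 preparation left out. The family median of 0.38 lay between 0.04 (chemoreceptor centring) and 0.51 (without preparation 3) and was 0.11 with array weights.

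Signs of some named genes changed. With arrays centred on their median, rps-24 was -0.013. With scale normalization rpl-7 was -0.0021 and rps-24 -0.016, and with quantile normalization rpl-7 was -0.0031 and rps-24 -0.022. Centring on ribosomal proteins or chemoreceptors lowers every gene by the mean of the centring medians, so that genes with a smaller positive mean turn negative by construction. Centred on ribosomal proteins, rps-15A was -0.30, rpl-7 -0.34, rps-24 -0.39, rpl-11.2 -0.20, rpl-37.1 -0.056, rps-16 -0.0066, eef-1A.2 -0.030 and fib-1 -0.10. Centred on chemoreceptors, rps-15A was -0.24, rpl-7 -0.28, rps-24 -0.33, rpl-11.2 -0.14 and fib-1 -0.044. With array weights, rps-15A was -0.17, rpl-7 -0.22, rps-24 -0.24, rpl-11.2 -0.11, rps-16 -0.075 and ncl-1 0.11.

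With 1 preparation left out, mean log2 ratios ran from -0.10 to 0.23 for rps-15A, -0.12 to 0.19 for rpl-7, -0.087 to 0.14 for rps-24, -0.31 to 0.23 for rpl-23A.1, -0.26 to 0.047 for rps-3A, -0.40 to 0.095 for rpl-38, -0.34 to 0.031 for rpl-36A, -0.15 to 0.48 for rpl-11.2, -0.19 to 0.039 for pab-1 and -0.39 to 0.21 for ncl-1.

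No paired analysis was possible because the arrays form 1 group. No member is named rpl-24.2, so leaving it out could not be run. The causes of these changes were not tested. No dye swap and no spot intensity enter here, so that dye bias of single probes and faint spots could not be examined, and 4 arrays limit the precision.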
